A study of Mus musculus with 9 samples.

Results

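The expression of 44 mouse genes of cell division and DNA replication, taken by symbol for their known function, was followed in the brain of 9 male C57BL/6 mice. The list was made with earlier results of these data known, so its comparison with all genes is a description. All 44 were found by symbol among the 38621 genes of the RPKM table. The 3 groups held 3 mice each: sham mice, which by the study's methods were injected with saline and which the labels call untreated; ICH mice, in which intracerebral hemorrhage was modeled with 30 µl of the animal's own blood; and feb mice, which received the same blood injection after gavage with febuxostat, which inhibits xanthine oxidase, at a dose of 50 mg/kg once a day for 5 days. The brain region taken and the time after injection were not stated for these libraries, and ICH and feb mice shared the blood injection. Values are RPKM, the reads of a gene scaled to the length of its exons and to all reads counted in the library, and the libraries held 23065757 to 29538009 reads on genes. Markers of neurons summed to between 619.6 and 915 RPKM in every mouse and a list of liver and muscle markers to at most 0.802 RPKM.

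A cell that divides first licenses its replication origins with the Mcm helicase, then copies its DNA with the sliding clamp Pcna and with deoxynucleotides made by Rrm2, Tyms and Tk1. Cyclins and mitotic kinases then drive entry into mitosis, kinetochore and spindle proteins move the chromosomes, and the checkpoint and the anaphase-promoting complex time their separation. In the adult brain, neurons have left the cell cycle, and division is known in neural progenitors, in oligodendrocyte precursors and, after injury, in microglia, astrocytes and vascular cells. In a bulk library, fewer cells of a type and less RNA per cell cannot be told apart. The 44 genes were 10 of replication (Mcm2 to Mcm7, Pcna, Rrm2, Tyms and Tk1), 29 of mitosis and 5 other genes of S phase (Dtl, Ticrr, Uhrf1, Tcf19 and Esco2).

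These genes were weakly expressed. Of the 44, 40 reached an RPKM of 0.1 in at least 3 mice and entered the test, and Dtl, Ticrr, Esco2 and Bub1 did not. Of the 40, 26 stayed under 1 RPKM in every sham mouse, and 4 (Mcm4, Mcm7, Pcna and Ccna2) were above 2 RPKM in every mouse. Each value rested on 3 to 2871 reads, and 8 of the 44 genes had under 10 reads in at least 1 mouse. In the sham group, levels ran from 6.88 ± 0.463 RPKM (SD, n = 3) for Pcna to 0.296 ± 0.0831 for Rrm2 among replication genes, and from 2.69 ± 0.207 for Ccna2 to 0.0925 ± 0.00803 for Iqgap3 among the mitotic genes tested, so the lists overlapped in level.

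The ICH mice did not resemble each other in these genes. ICH mouse 2 had the highest value of all 9 mice for 39 of the 40 genes, where 16.2% of all 29025 genes tested were highest in that mouse. For 28 of the 40, its value was at least 1.5 times that of every other mouse, against 2.10% of all genes, and its median ratio to the next highest mouse was 1.71. It lay above every sham mouse for 40 of 40 genes (35.0% of all genes did), ICH mouse 1 for 28 of 40 (43.2%), and ICH mouse 3 for 9 of 40 (28.1%). ICH mouse 1 was second highest for 22 genes, and ICH mouse 3 lay within the range of the sham mice for 18. Medians, counts of calls and many single differences of the ICH group are therefore given with and without ICH mouse 2. ICH mouse 2 had 26301356 reads, against 24483380 and 26188971 in the other ICH mice.

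**Figure D1:**
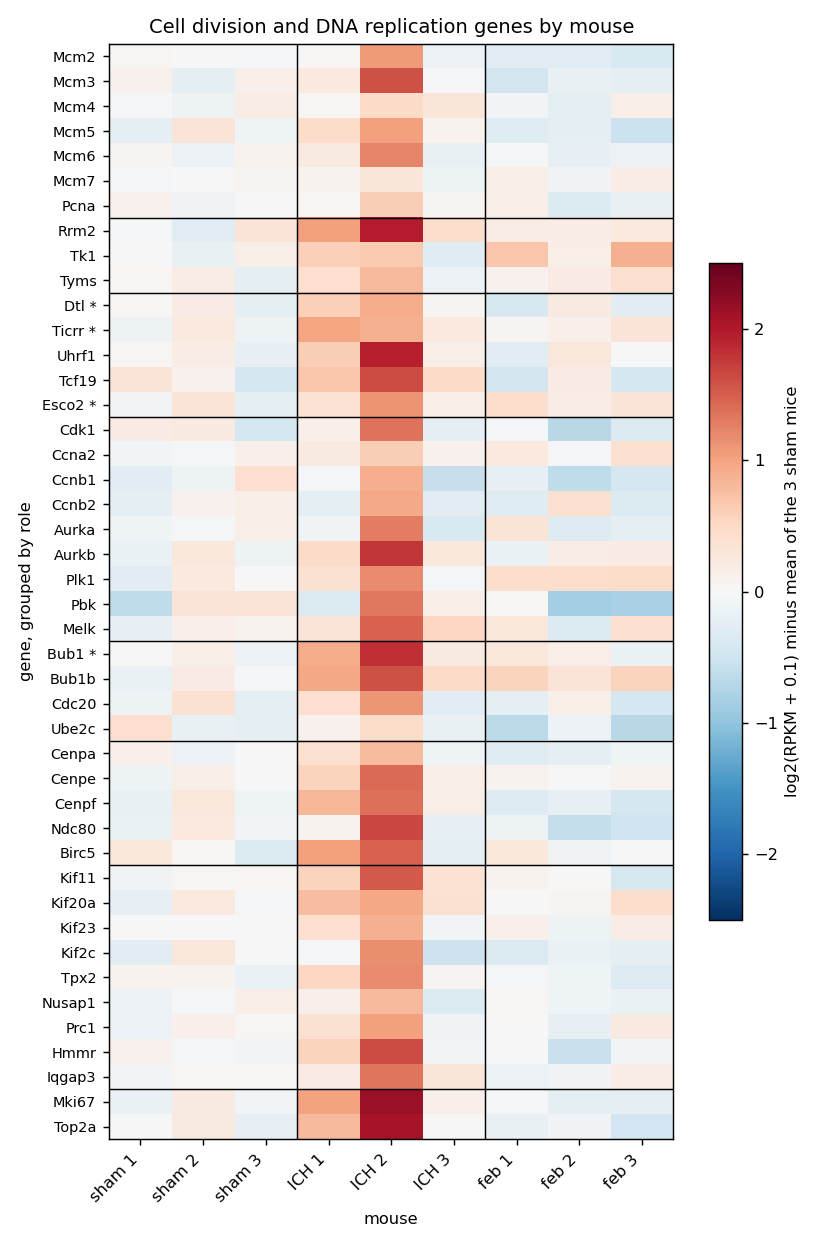
Each row is a gene and each column a mouse, and color gives log2(RPKM + 0.1) minus the mean of the 3 sham mice, with genes grouped by role and an asterisk on the 4 genes below the expression filter. The column of ICH mouse 2 is red in nearly all rows, ICH mouse 1 is paler, and ICH mouse 3 and the 3 feb mice are close to the sham mice.

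Among all genes tested, ICH against sham was assessed with limma on log2(RPKM + 0.1), a scale that understates the fold of genes near 0.1 RPKM. A gene was called when its unadjusted p was under 0.05 and its fold change over 2. These are the thresholds of the study, which applied them to edgeR tests, so the calls can differ. The study lists Rrm2 and Top2a among its genes significant in both ICH against sham and feb against ICH. All 40 genes had a higher fitted mean in ICH than in sham mice (61.1% of all genes did; 39 of the 40 with equal medians in all libraries), with a median log2 difference of 0.47 against 0.08 over all genes. Of the 40, 3 (Rrm2, Bub1b and Mki67) were called higher and 0 lower, where 1.46% of all genes were called higher. Without the limit on fold, 8 had p under 0.05 (7.88% of all genes, higher). On GRCm38, Rrm2 lies at chr12:24708241-24714146, Bub1b at chr2:118598211-118641591 and Mki67 at chr7:135689784-135716361, and the values count reads on their exons. By limma, 0 of the 40 had an adjusted p under 0.05 (0.0241% of all genes did), and the lowest was 0.334. Values of the ICH mice lay above all sham mice for 8 of the 40, against 13.2% of all genes. Without ICH mouse 2, the median fell to 0.16, 29 of 40 differences were positive, 0 genes were called (1.49% of all genes were called higher), and 3 (Bub1b, Kif20a and Rrm2) had p under 0.05, against 5.14% of all genes. With 3 mice against 3, the exact two-sided permutation test of a gene cannot go below 0.1.

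In the order of the cell cycle, the genes of licensing and the replication fork came first. Mcm2, a helicase subunit, had 1.01, 0.968 and 0.956 RPKM in sham mice, 0.998, 2.16 and 0.878 in ICH mice, and 0.782, 0.780 and 0.723 in feb mice. Mcm3, another subunit, had 1.45, 1.13 and 1.49 RPKM in sham, 1.62, 4.29 and 1.29 in ICH, and 0.956, 1.17 and 1.14 in feb mice. In both genes only ICH mouse 2 was high, and the other ICH mice stood at 0.899 to 1.20 times the sham mean. Mcm5 had 0.780, 1.19 and 0.855 RPKM in sham, 1.31, 2.0 and 0.995 in ICH, and 0.728, 0.774 and 0.608 in feb mice, so that all feb mice were below all sham and all ICH mice. Mcm6 had 1.16, 0.992 and 1.18 RPKM in sham, 1.31, 2.71 and 0.966 in ICH, and 1.06, 0.951 and 0.985 in feb mice. Pcna had 7.36, 6.44 and 6.85 RPKM in sham, 7.11, 10.7 and 7.25 in ICH, and 7.62, 5.397 and 6.05 in feb mice, and its groups overlapped in every comparison. None of the 7 genes of this role was called for ICH against sham, and their log2 differences ran from 0.09 (Mcm7) to 0.60 (Mcm3, SE 0.38). Their median was 0.32, and 0.06 without ICH mouse 2.

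Rrm2, the regulatory subunit of ribonucleotide reductase, stood out among the suppliers of nucleotides. It had 0.281, 0.221 and 0.385 RPKM in sham mice, 0.693, 1.43 and 0.427 in ICH mice, and 0.341, 0.343 and 0.3599 in feb mice. Every ICH mouse was above every sham mouse and every feb mouse. The log2 difference of ICH from sham was 1.14 (SE 0.37, limma adjusted p = 0.347) and 0.73 without ICH mouse 2. Thymidylate synthase, Tyms, had 0.489, 0.547 and 0.386 RPKM in sham, 0.664, 0.899 and 0.414 in ICH, and 0.515, 0.559 and 0.655 in feb mice. Tk1, the thymidine kinase of the salvage pathway, had 0.821, 0.707 and 0.924 RPKM in sham, 1.27, 1.34 and 0.639 in ICH, and 1.37, 0.922 and 1.59 in feb mice. Tk1 was the only one of the 40 that was not highest in ICH mouse 2, its highest value being that of feb mouse 3.

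Of the other genes of S phase, 2 passed the filter. Uhrf1, which carries DNA methylation through replication, had 0.493, 0.557 and 0.401 RPKM in sham, 0.786, 2.12 and 0.538 in ICH, and 0.381, 0.605 and 0.478 in feb mice, and the ICH mice overlapped with both groups. Tcf19, a gene first known for its rise at the start of S phase, had 0.513, 0.429 and 0.260 RPKM in sham, 0.688, 1.41 and 0.579 in ICH, and 0.254, 0.467 and 0.268 in feb mice. All ICH mice were above all other mice for Tcf19. Its log2 difference of ICH from sham was 0.93 (SE 0.37, limma adjusted p = 0.388), short of the fold limit, and 0.58 without ICH mouse 2. Below the filter, Dtl had 0.0441 to 0.0949 RPKM in sham and 0.0780 to 0.222 in ICH mice, Ticrr 0.0237 to 0.0612 and 0.0611 to 0.167, and Esco2 0.0266 to 0.0859 and 0.0667 to 0.228.

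Mitotic kinases and cyclins had a median log2 difference of 0.37 between ICH and sham over 9 genes, and 0 of them were called. Cdk1, the kinase that starts mitosis, had 0.216, 0.222 and 0.103 RPKM in sham, 0.202, 0.607 and 0.133 in ICH, and 0.165, 0.0690 and 0.113 in feb mice. Its partner cyclin gene Ccnb1 had 0.112, 0.136 and 0.245 RPKM in sham, 0.155, 0.388 and 0.0724 in ICH, and 0.125, 0.0658 and 0.0925 in feb mice. Only ICH mouse 2 left the sham range upward in either gene, and without it their log2 differences were -0.05 and -0.30. Of the other 7, Melk lay higher in every ICH mouse than in every sham mouse. Its log2 difference was 0.77 (SE 0.35), and 0.42 without ICH mouse 2. The differences ran from 0.10 (Ccnb1) to 0.85 (Aurkb, SE 0.41), and without ICH mouse 2 the median of the 9 was -0.05, with 4 genes above 0.

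Bub1b, a kinase-like protein of the spindle checkpoint, was the most even of the genes that were called. It had 0.721, 0.958 and 0.799 RPKM in sham mice, 1.69, 2.67 and 1.18 in ICH mice, and 1.25, 1.05 and 1.26 in feb mice. All ICH mice and all feb mice were above all sham mice. The log2 difference of ICH from sham was 1.01 (SE 0.27, limma adjusted p = 0.334) and 0.72 without ICH mouse 2. Its checkpoint partner Bub1, below the filter and so not tested with limma, had 0.0466, 0.0615 and 0.0327 RPKM in sham, 0.178, 0.419 and 0.0702 in ICH, and 0.0781, 0.0637 and 0.0299 in feb mice, with every ICH mouse above every sham mouse (exact two-sided permutation p = 0.1, the lowest possible). Ube2c, the ubiquitin-conjugating enzyme of the anaphase-promoting complex, had 0.299, 0.162 and 0.150 RPKM in sham, 0.220, 0.307 and 0.162 in ICH, and 0.0872, 0.168 and 0.0834 in feb mice, with 5 to 23 reads per mouse and 22.8% of its exon bases shared with Tnnc2 on the other strand. The activator Cdc20 had a log2 difference of 0.41 (SE 0.36) between ICH and sham, and 0.07 without ICH mouse 2.

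Genes of the centromere and kinetochore had a median log2 difference of 0.71 over 5 genes, and 0.37 without ICH mouse 2. Cenpf, a large kinetochore protein, had 0.559, 0.808 and 0.595 RPKM in sham, 1.23, 1.84 and 0.725 in ICH, and 0.499, 0.544 and 0.461 in feb mice. The feb mice lay below all sham and all ICH mice, and ICH mouse 3 lay within the sham range. Birc5, the survivin gene of the chromosomal passenger complex, had 0.358, 0.292 and 0.199 RPKM in sham, 0.672, 0.950 and 0.225 in ICH, and 0.355, 0.256 and 0.280 in feb mice. For Birc5, ICH mice 1 and 2 were above all other mice and ICH mouse 3 was near the bottom of the sham range. Cenpe, a kinetochore motor, was higher in every ICH mouse than in every sham mouse, with a log2 difference of 0.71 (SE 0.29, limma adjusted p = 0.390) and 0.37 without ICH mouse 2.

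Motors and other proteins of the spindle and of cytokinesis had a median log2 difference of 0.59 over 9 genes, and 0.24 without ICH mouse 2. Kif20a, a kinesin of cytokinesis, had 0.767, 1.09 and 0.881 RPKM in sham, 1.61, 1.85 and 1.21 in ICH, and 0.915, 0.950 and 1.27 in feb mice. Each ICH value exceeded each sham value, with a log2 difference of 0.70 (SE 0.22, limma adjusted p = 0.347) and 0.58 without ICH mouse 2. However, 33.2% of the exon bases of Kif20a overlap Cdc23 on the other strand, and the strand setting of the counting was not stated. Kif11, the motor that separates the spindle poles, and Iqgap3, a scaffold protein of dividing cells, were also higher in every ICH mouse, with log2 differences of 0.81 (SE 0.30) and 0.61 (SE 0.34). Without ICH mouse 2, these differences were 0.457 and 0.255. Iqgap3 was under 0.1 RPKM in every sham mouse and passed the filter through the ICH group (0.122, 0.384 and 0.138 RPKM). Its place in the counts of genes without overlap is thus partly set by the filter. The differences of the other 6 genes ran from 0.19 (Nusap1) to 0.71 (Hmmr).

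Mki67, the gene of the proliferation antigen used to stain cycling cells, had the most reads of the 44. It had 2.10, 2.76 and 2.26 RPKM in sham mice, 4.85, 10.8 and 2.59 in ICH mice, and 2.31, 1.98 and 2.01 in feb mice. ICH mouse 3 lay within the sham range, so the groups overlapped, and the log2 difference was 1.10 (SE 0.42, limma adjusted p = 0.382), or 0.57 without ICH mouse 2. Top2a, the topoisomerase that untangles replicated chromosomes, had 0.864, 1.04 and 0.738 RPKM in sham, 1.61, 3.99 and 0.877 in ICH, and 0.759, 0.818 and 0.597 in feb mice. Its difference of 0.97 (SE 0.45, limma adjusted p = 0.416) was not called here, while the study lists Top2a as significant in this contrast. Without ICH mouse 2, the difference of Top2a was 0.41. In ICH mouse 2, Mki67 stood at 4.58 times and Top2a at 4.54 times the sham mean, in ICH mouse 1 at 2.05 and 1.83 times, and in ICH mouse 3 at 1.09 and 0.997 times.

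**Figure D2:**
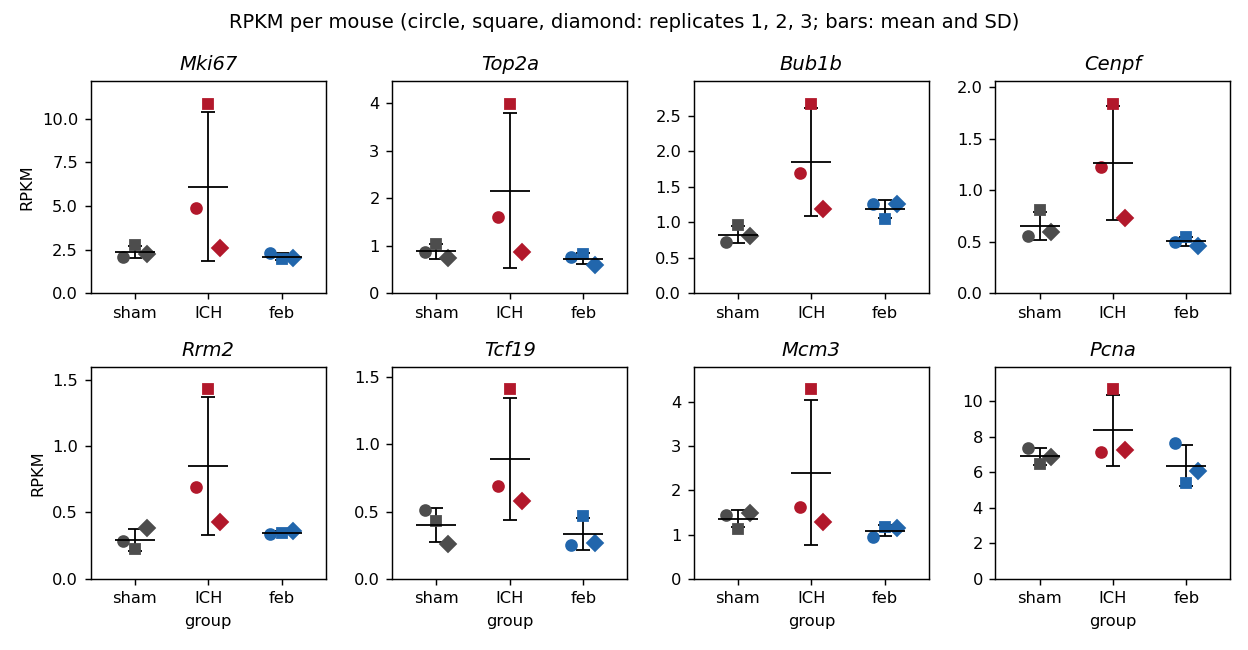
RPKM of 8 genes is plotted per mouse for the sham, ICH and feb groups, with the mean and SD of the 3 mice as bars and a linear axis from 0 in each panel. The square of ICH mouse 2 is the highest point in every panel, and for Mki67 it stands at 10.8 RPKM against 1.98 to 4.85 in the other 8 mice.

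Feb was then compared with ICH, a contrast that uses the same 3 ICH mice. Of the 40 genes, 39 had a lower fitted mean in feb than in ICH mice (47.8% of all genes had a higher mean in feb), with a median log2 difference of -0.63 against -0.01 over all genes. Of these, 4 were called lower and 0 higher, where 1.05% of all genes were called lower. Cenpf differed by -1.10 (SE 0.30, limma adjusted p = 0.299), Mki67 by -1.26 (SE 0.42, adjusted p = 0.357), Top2a by -1.21 (SE 0.45, adjusted p = 0.393) and Tcf19 by -1.15 (SE 0.37, adjusted p = 0.342). Cenpf lies at chr1:189640606-189688086, Top2a at chr11:98992943-99024189 and Tcf19 at chr17:35512734-35516824. The feb and ICH values did not overlap in any of the 4. Among the 40, 10 had p under 0.05 (6.16% of all genes, lower), and 13 had all feb mice below all ICH mice (10.1% of all genes). By limma, 0 had an adjusted p under 0.05 (0.00689% of all genes did). Among those short of the fold limit, Mcm5 differed by -0.89 (SE 0.26, limma adjusted p = 0.316) and Rrm2 by -0.94 (SE 0.37, adjusted p = 0.413). The study lists Rrm2 as significant in this contrast too.

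Without ICH mouse 2, the median difference of feb from ICH was -0.31, 31 of the 40 were negative, and 0 were called, against 0.944% of all genes called lower. In that fit 5 genes (Cenpf, Mcm5, Tcf19, Mki67 and Kif11) had p under 0.05, against 4.14% of all genes. Cenpf differed by -0.80, Mki67 by -0.73, Top2a by -0.66 and Tcf19 by -0.80 without this mouse. Tk1 went the other way with all mice, at 0.27 (SE 0.30), and so did not share the direction of the other 39.

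**Figure D3:**
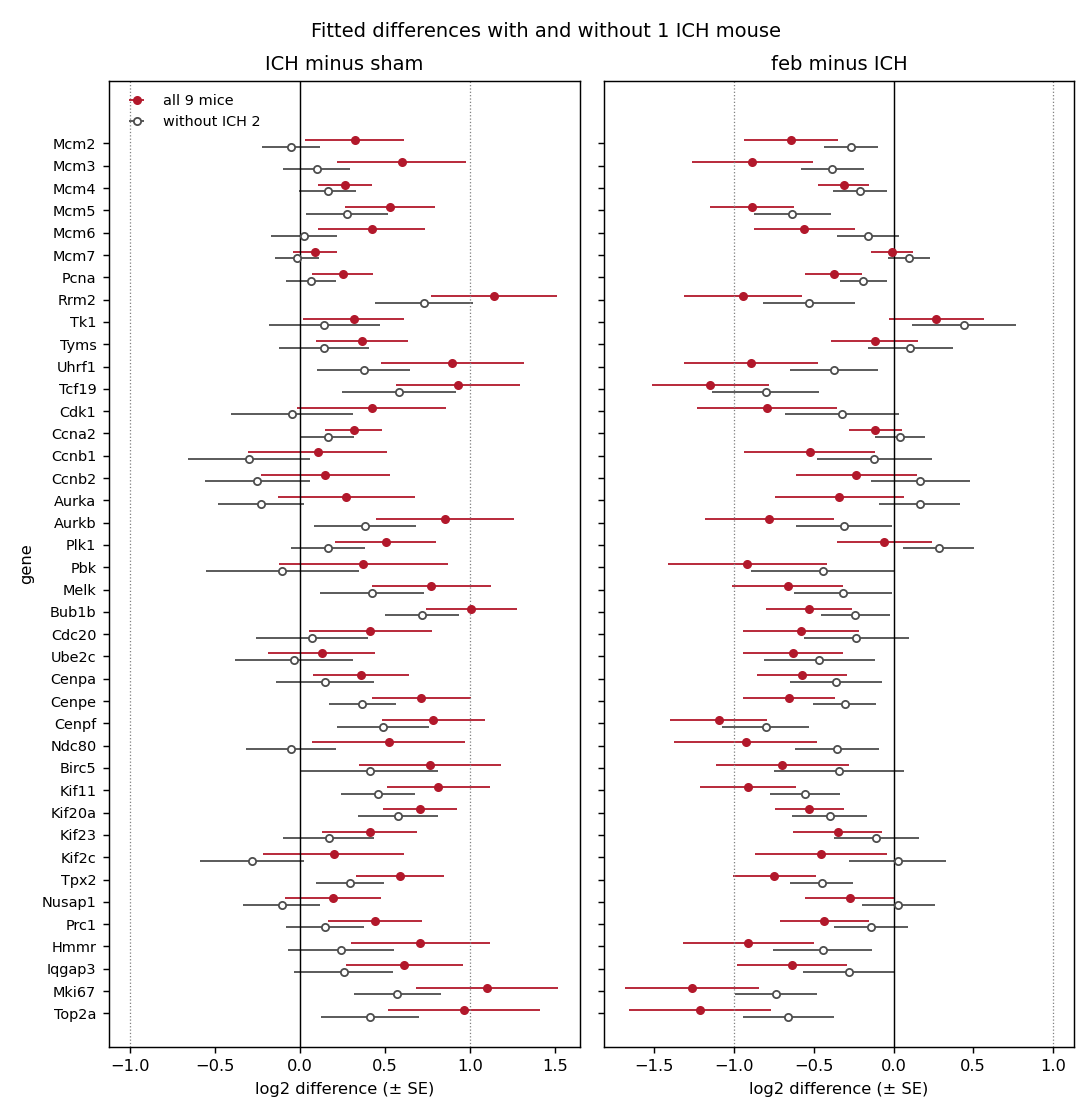
Fitted log2 differences with standard errors are drawn for the 40 genes tested, filled for all 9 mice and open without ICH mouse 2, with dotted lines at a 2-fold change. Without that mouse, all 40 points move to the left in ICH minus sham and to the right in feb minus ICH, and no open point passes a dotted line.

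By the criteria used and with all 9 mice in the fit, feb mice did not differ from sham mice for any of the 40. Limma called 0 genes, with 0 at an unadjusted p under 0.05, where 2.20% of all genes were called and 8.54% had p under 0.05. The median log2 difference was -0.09 against 0.05 over all genes, with 15 genes above 0 and 25 below, and 9 above 0 when all libraries were given equal medians. Ratios of the feb mean to the sham mean ran from 0.538 to 1.59. The smallest p was that of Tk1, with a log2 difference of 0.58 (SE 0.30, limma adjusted p = 0.625), then that of Bub1b, with 0.48 (SE 0.27), and of Ube2c, with -0.50 (SE 0.31). Without overlap between the groups, 2 genes (Bub1b and Plk1) were higher and 3 (Mcm2, Mcm5 and Cenpf) lower in feb than in sham mice, where 7.78% of all genes were higher and 4.90% lower in this way. These 5 differences ran from -0.36 to 0.48 in log2 with standard errors of 0.26 to 0.30, and none had a limma p under 0.05.

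Replication genes were set beside mitotic genes by the mean, over the genes of each list, of log2(RPKM + 0.1) minus its sham mean. The 10 replication genes had means of 0.32, 0.98 and -0.01 in ICH mice 1 to 3, with 0.01, -0.10 and 0.04 in feb mice. The 28 mitotic genes tested had 0.38, 1.27 and -0.02 in ICH mice, with -0.02, -0.15 and -0.11 in feb mice. Both lists thus put the ICH mice in the same order, and the mitotic mean exceeded the replication mean by 0.06 in ICH mouse 1 and 0.29 in ICH mouse 2, against -0.01 in ICH mouse 3. In sham mice that excess was between -0.09 and 0.17. It was between -0.15 and -0.03 in feb mice. The excess was thus outside the sham range in 2 mice, above it in ICH mouse 2 and below it in feb mouse 3.

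**Figure D4:**
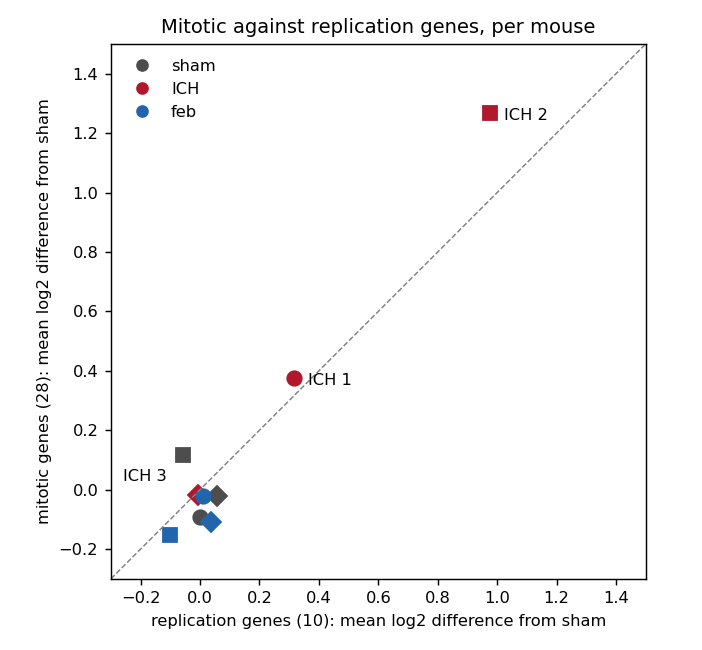
For each mouse, the mean log2 difference from the sham group over 28 mitotic genes (vertical) is plotted against that over 10 replication genes (horizontal), with the dashed line where both are equal. ICH mouse 2 stands at 0.98 and 1.27 and ICH mouse 1 at 0.32 and 0.38, while the other 7 mice lie around 0.

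Values varied within each list. The median log2 difference of ICH from sham was 0.34 for replication and 0.51 for mitotic genes, and 0.12 and 0.17 without ICH mouse 2. That of feb from ICH was -0.47 and -0.63, and -0.20 and -0.31 without ICH mouse 2. The replication genes with the smallest ratios in ICH mouse 2 were Mcm7, Mcm4 and Pcna, the 3 with levels above 2 RPKM in every mouse, at 1.24, 1.40 and 1.55 times the sham mean, against 4.83 times for Rrm2 and 3.16 times for Mcm3. Among mitotic genes, Ccna2, the cyclin of S phase and early mitosis and the only one above 2 RPKM in every mouse, stood at 1.56 times, and 12.5% of its exon bases overlap Exosc9 on the other strand. Other genes on either strand overlap 12.6% of the exon bases of Mcm7, and a gene on the other strand overlaps 11.1% of those of Prc1.

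Other genes of the cell cycle were counted from a list of 132, of which 129 were tested. For ICH against sham, 1 was called higher and 0 lower, where 1.46% of all genes were called higher. This was Cdc25c, the phosphatase that activates the mitotic kinase, with 0.0523, 0.0394 and 0.0916 RPKM in sham and 0.316, 0.255 and 0.138 in ICH mice and a log2 difference of 1.04 (SE 0.32, limma adjusted p = 0.347). Its sham values were all under the 0.1 RPKM of the filter, and its ICH values alone were enough to pass it. The call is therefore not independent of the filter. The median difference was 0.38 over 53 other mitotic genes, 0.10 over 42 other replication genes and 0.23 over 34 genes that control the cycle, against 0.08 over all genes. Without ICH mouse 2, these medians were 0.17, 0.02 and 0.14, again against 0.08 over all genes. ICH mouse 2 was highest for 42 of the 53, 20 of the 42 and 18 of the 34. For feb against ICH, 0 of the 129 were called, where 1.05% of all genes were called lower, and the medians were -0.40, -0.10 and -0.14. Without ICH mouse 2, the medians were -0.18, -0.003 and -0.10, against -0.03 over all genes. With all mice, 13 of the 129 had p under 0.05, and these were lower in feb (6.16% of all genes were).

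Of the 3 cyclin D genes, which carry growth signals into the cycle, 0 were called, and their log2 differences of ICH from sham were 0.23 (SE 0.17) for Ccnd1, 0.85 (SE 0.16) for Ccnd2 and 0.12 (SE 0.16) for Ccnd3. Ccnd2 had 2.66, 4.03 and 2.80 RPKM in sham, 5.11, 6.41 and 5.63 in ICH, and 3.60, 3.72 and 3.45 in feb mice. The ICH mice had the 3 highest values, with a limma adjusted p of 0.278 against sham and a log2 difference of -0.65 (SE 0.16, adjusted p = 0.271) of feb from ICH. Leaving out ICH mouse 2 gave 0.77 and -0.57. Its kinase partner Cdk4 had 4.51, 5.59 and 4.92 RPKM in sham, 6.41, 7.31 and 6.31 in ICH, and 5.24, 4.66 and 5.14 in feb mice, again with all ICH mice on top. Of the 129, 22 had all ICH mice above all sham mice, where 13.2% of all genes did. The ICH mice lay below all sham mice for 1 of the 129, against 6.22% of all genes. For feb against sham, 1 of the 129 was called (2.20% of all genes were), Cdkn1a, the gene of a cyclin-dependent kinase inhibitor, with 1.34, 0.964 and 1.10 RPKM in sham, 1.93, 1.75 and 1.15 in ICH, and 7.31, 1.18 and 10.7 in feb mice (log2 difference 1.93, SE 0.68, limma adjusted p = 0.565). Feb mice 1 and 3 were high and feb mouse 2 was within the sham range.

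Markers of cell types were read in the same mice. Of 9 microglia markers, 8 were highest in ICH mouse 2, and their sum was 65.9 to 87.9 RPKM in sham, 100.3, 149.8 and 76.5 in ICH, and 60.5 to 94.1 in feb mice, the same order of the ICH mice as that of the division genes. That order of the sums was not particular to microglia. The sums of astrocyte markers (289, 736 and 215 RPKM in ICH mice 1 to 3) and of choroid plexus markers (835, 966 and 457.5) had it too. Single genes weighed heavily in both. Gfap gave 573.5 of the 736 RPKM in ICH mouse 2. Ttr gave most of the choroid plexus sums, with 808, 937.5 and 437 RPKM in ICH mice against 349.6 to 1005 in sham mice. Of the 7 choroid plexus markers, 3 were highest in ICH mouse 2. Of 5 astrocyte markers, 2 (Gfap and Aldh1l1) were highest in ICH mouse 2, and Gja1 was lowest there. Gfap, an astrocyte filament raised in reactive astrocytes, had 128, 573.5 and 63.3 RPKM in the ICH mice against 57.3 to 142.5 in sham mice, and Nes, a filament of progenitors and reactive astrocytes, 7.61, 18.0 and 8.09 against 7.80 to 10.9. Of 14 markers of neural progenitors and neuroblasts, 3 were highest in ICH mouse 2 and 7 in ICH mouse 1, and 12 of the 14 had a higher fitted mean in ICH than in sham mice, with 0 called. Their sums were 104 to 123 RPKM in ICH and 119 to 129 in sham mice, most of it from Tubb3, which neurons also express; without Tubb3 they were 38.7 to 50.4 in ICH, 28.4 to 38.9 in sham and 33.0 to 38.2 in feb mice. Of 8 markers of oligodendrocyte precursors, 0 were highest in ICH mouse 2, and their sum there, 43.2 RPKM, was the lowest of the 9 mice. Of 11 markers of infiltrating leukocytes only 3 passed the filter, their sum was 3.004 to 10.4 RPKM over all mice, and Plac8, S100a8, Ms4a7 and Cd3e were listed at 0 in some mice. Of 5 erythroid markers, 4 were highest in ICH mouse 1, where they summed to 124 RPKM, and 0 in ICH mouse 2. Their sums were 17.1 to 21.6 RPKM in feb and 32.3 to 40.6 in sham mice. Of the 5, 4 were called lower in feb than in ICH (1.05% of all genes were) and 3 lower in feb than in sham mice (0.613%). Alas2 was not among them, with 3.36, 5.29 and 7.78 RPKM in feb mice, the last being its highest value. Markers of the choroid plexus summed to 30.4 to 88.2 RPKM in feb, 457.5 to 966 in ICH and 365 to 1033 in sham mice. Of these 7, 7 were called lower in feb than in ICH (1.05% of all genes were) and 6 lower in feb than in sham mice (0.613%). The part of these cell types in the values of the division genes was not tested.

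The genes whose values over the 9 mice were most like the mean of the 28 mitotic genes were looked up among 17424 other genes with a median of at least 1 RPKM. The 10 with the highest Pearson r, as a description only, were Pdpn, Thop1, Lyn, Arhgdia, Ly86, Slc1a4, Fcrls, Hist1h2ap, Nubp1 and Fxyd3, with r from 0.956 to 0.974 and Spearman's rho from 0.600 to 0.967. Pdpn, the gene of podoplanin, had 5.61, 5.33 and 4.58 RPKM in sham, 6.41, 19.7 and 4.58 in ICH, and 4.10, 3.84 and 4.27 in feb mice. Fcrls, a microglial gene, had 4.22, 6.59 and 4.82 RPKM in sham, 7.25, 15.5 and 5.15 in ICH, and 4.79, 3.72 and 3.33 in feb mice. Hist1h2ap, a histone gene of a family with near-identical copies, had 30.1 RPKM in ICH mouse 2 and 10.6 to 14.8 in the other mice. Without the 2 mice farthest from the median, ICH mice 2 and 1, r was 0.913 for Ly86, 0.942 for Fcrls and at most 0.701 for the other 8, so for those 8 the likeness rested largely on these mice.

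Promoters were read because mitotic and replication genes are known to carry different control elements: the cell cycle genes homology region (CHR), bound by the DREAM and MuvB complexes, and the E2F site. RefSeq windows of 250 bases before to 50 bases after a transcription start (GRCm38.p6) were found for 37 of the 44 genes. Esco2, Ccna2, Tpx2, Kif20a, Aurkb, Mcm4 and Pbk had none. The words TTTGAA and TTCGAA were searched for the CHR, CCAAT for the CCAAT box, and TTTCGCGC, TTTGGCGC, TTTCCCGC and TTTGCCGC for the E2F site, each on both strands, and the 3 sets share no word. A CHR word was present for 19 of 24 mitotic genes (79.2%), 2 of 9 replication genes (22.2%) and 21.7% of all 27025 genes with a window. An E2F word was present for 1 of 24 mitotic genes (4.17%), 4 of 9 replication genes (44.4%) and 2.6% of all genes. CCAAT was present for 75.0% of mitotic, 77.8% of replication and 41.1% of all genes. A match of letters is a description and not a site.

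The 160 bases before the RefSeq start are shown for genes that carry these words, 3 of mitosis and 2 of replication, on the strand of the gene and from 5′ to 3′, with CHR and E2F words of either strand in capitals. Mki67 (chr7:135716380-135716539, minus strand) holds 2 CHR words, Top2a (chr11:99024190-99024349, minus strand) 3, and Kif11 (chr19:37376222-37376381, plus strand) 1. Mcm5 (chr8:75109349-75109508, plus strand) holds 2 E2F words and Mcm6 (chr1:128359706-128359865, minus strand) 3, and 2 of these words overlap in each.
Mki67: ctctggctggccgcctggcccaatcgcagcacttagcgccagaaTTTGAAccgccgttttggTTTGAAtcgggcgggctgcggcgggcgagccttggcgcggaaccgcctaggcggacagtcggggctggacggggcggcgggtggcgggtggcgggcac
Top2a: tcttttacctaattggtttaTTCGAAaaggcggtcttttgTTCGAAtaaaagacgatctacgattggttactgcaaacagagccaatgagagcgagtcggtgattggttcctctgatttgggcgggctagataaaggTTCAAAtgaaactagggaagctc
Kif11: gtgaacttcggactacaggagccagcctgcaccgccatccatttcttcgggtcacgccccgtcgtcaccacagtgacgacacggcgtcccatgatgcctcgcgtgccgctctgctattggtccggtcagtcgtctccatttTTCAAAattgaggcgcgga
Mcm5: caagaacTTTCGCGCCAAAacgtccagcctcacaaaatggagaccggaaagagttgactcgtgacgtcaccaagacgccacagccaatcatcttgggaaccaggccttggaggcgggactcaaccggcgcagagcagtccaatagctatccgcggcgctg
Mcm6: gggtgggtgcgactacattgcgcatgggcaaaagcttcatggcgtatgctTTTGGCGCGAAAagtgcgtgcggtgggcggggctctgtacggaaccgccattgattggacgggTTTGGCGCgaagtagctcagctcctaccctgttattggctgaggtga

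**Figure D5:**
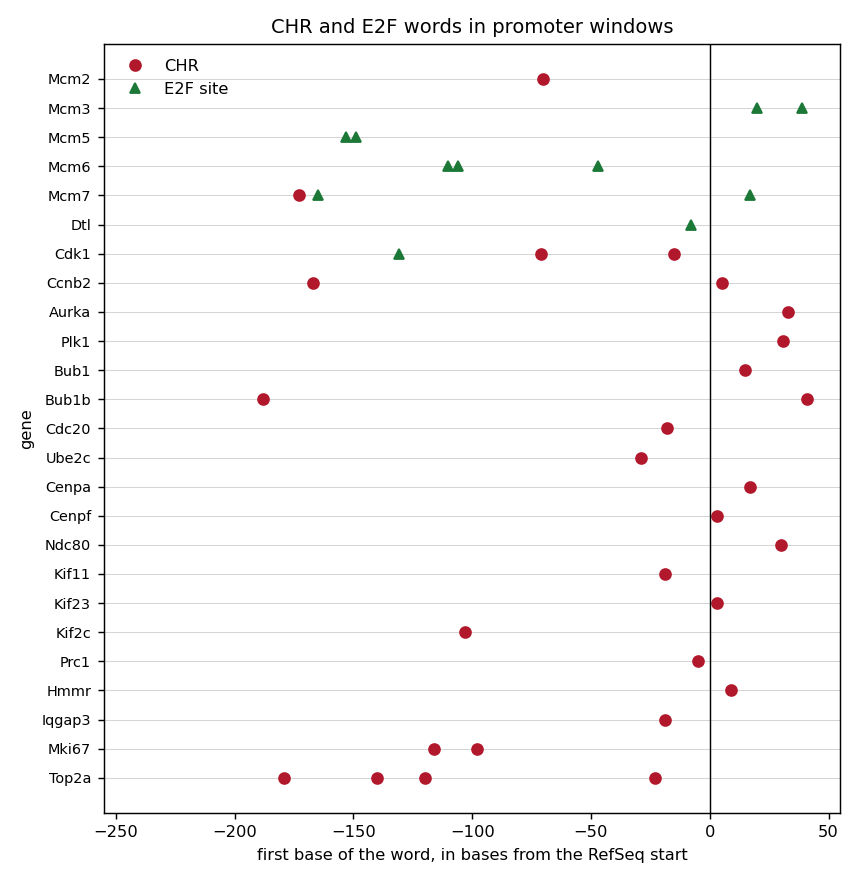
The position of the first base of each CHR word (circles) and E2F word (triangles) is plotted in bases from the RefSeq start, 1 row per gene that holds a word in its first listed window. CHR words stand mostly in rows of mitotic genes, and E2F words in rows of Mcm genes, Dtl and Cdk1.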

How the data were processed

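Libraries of rRNA-depleted mouse brain RNA with UMIs were sequenced from 9 mice. The authors trimmed reads (Trimmomatic 0.36), built consensus reads by UMI, aligned them to GRCm38 (the aligner version is given as 2.5.3a), counted reads on exons with featureCounts (Subread 1.5.1), and deposited RPKM values with the summed exon length of each gene. They tested with edgeR 3.12.1. The annotation release, strand setting and treatment of reads that map several times were not given in the sources used here. The deposited RPKM values were whole multiples of 1 read for 100% of genes (tolerance 0.05 reads), and the recovered reads gave the depth of each library and an alternative fit.

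Here limma 3.58.1 in R 4.3.3 (lmFit, then eBayes with the trend option) was fitted to log2(RPKM + 0.1) for the 29025 of 38621 genes that reached 0.1 RPKM in 3 or more mice, with all 9 mice and no block. Calls needed an unadjusted p under 0.05 with more than a 2-fold change. Adjusted p-values follow Benjamini-Hochberg across all genes tested. Single genes were also compared by exact two-sided permutation. The code was tested on simulated data. The contrasts share groups, so their results are not independent. The members and gene lists were chosen with earlier results of these data known. All 44 members are among the genes counted, with values per mouse for those called, 14 named by role and the 3 smallest p of each contrast. The mitotic genes Aurka, Ccnb2, Cenpa, Ndc80, Kif23 and Kif2c entered the counts and medians and are not described singly. Of the other cell cycle genes, those called are named, and Ccnd1, Ccnd2, Ccnd3, Cdk4 and the marker genes with values were named after their values were seen. The labels name no litter or culture, so p-values measure the spread between these mice. Mice within a group differed beyond counting noise (chi-square per gene 12.7 to 43.7). Promoter sequences were taken from RefSeq by symbol. Figures were drawn with matplotlib 3.10.9 in Python 3.11.15.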

Additional observations from a re-analysis of the deposited data

How the results depend on the processing

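The medians of the mitotic and of the replication genes moved by less than the spread between mice in all alternatives and contrasts, from 0.26 to 0.59 (mitotic) and 0.22 to 0.38 (replication) for ICH against sham, and from -0.81 to -0.25 and -0.49 to -0.35 for feb against ICH. That spread, the pooled SD within groups of the list mean, was wide (0.39 mitotic, 0.29 replication) and includes ICH mouse 2. A pseudocount of 1 took the mitotic median for feb against ICH from -0.63 to -0.25, nearly as far as the spread. With 1 mouse left out, the mitotic median ran from 0.17 to 0.77 for ICH against sham and from -0.84 to -0.31 for feb against ICH, the ends nearest 0 being those without ICH mouse 2. For feb against sham, the mitotic median ran from -0.25 to 0.01 over the other settings. The counts of calls moved more, and the causes were not tested beyond what each setting changes. For ICH against sham, the 3 calls became 0 with a pseudocount of 1, 1 with equal medians, 1 with quantile normalization, 8 with voom on the recovered reads and 8 by p alone. For feb against ICH, the 4 calls became 1 with a pseudocount of 1, 2 with a filter of RPKM of at least 1, 7 with voom and 10 by p alone. Leaving out 1 mouse gave 0 to 11 calls for ICH against sham, with 0 without ICH mouse 2, 1 without sham mouse 3 and 11 without ICH mouse 3. For feb against ICH it gave 0 to 15 calls, with 0 without ICH mouse 2, 7 without ICH mouse 1 and 15 without ICH mouse 3. For feb against sham, 0 members were called in each of these settings.

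Of the 129 other cell cycle genes, the 1 call for ICH against sham became 0 with a pseudocount of 1, a filter of RPKM of at least 1, equal medians or quantile normalization, 2 with a pseudocount of 0.01, 5 with voom and 14 by p alone, and 0 to 5 with 1 mouse left out (0 without ICH mouse 2, 2 without ICH mouse 1, 3 without sham mouse 2, 5 without ICH mouse 3). The 0 calls for feb against ICH became 1 with a pseudocount of 1, 3 with a pseudocount of 0.01, 8 with voom and 13 by p alone, and 0 to 12 with 1 mouse left out (1 without ICH mouse 1 or feb mouse 1, 3 without feb mouse 2, 12 without ICH mouse 3). The 1 call for feb against sham became 2 by p alone and 0 to 2 with 1 mouse left out (0 without sham mouse 2, feb mouse 1 or feb mouse 3, 2 without feb mouse 2). Deviations of same-numbered mice in different groups correlated at -0.127 to 0.0194 over all genes. With 3 mice a group, this cannot decide whether the numbers pair the mice. With the replicate number as a block, the calls stayed at 3 members for ICH against sham, 4 for feb against ICH and 0 for feb against sham. Members with p under 0.05 went from 8 to 13 for ICH against sham (Mcm5, Uhrf1, Aurkb, Tpx2 and Top2a added) and from 10 to 8 for feb against ICH (Mcm3, Rrm2 and Kif20a lost, Uhrf1 added). Equal medians moved the split of all genes called for ICH against sham from 423 higher and 312 lower to 327 and 421, and for feb against sham from 461 and 178 to 336 and 230, with the median of all genes going from 0.05 to -0.05 in the latter. Genes with few reads, 8 of them under 10 reads in some mouse, are measured with low precision, and 3 mice a group with 1 far from the others leave wide standard errors.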
